A study of Rattus norvegicus with 24 samples.

Results

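The 10 genes described here encode the insulin-like growth factor (IGF) system as it was measured in rat tibialis anterior (TA) muscle: the ligands Igf1 and Igf2, the receptors Igf1r and Igf2r, the binding proteins Igfbp3, Igfbp4, Igfbp5, Igfbp6 and Igfbp7, and the adaptor Irs1. They were chosen by symbol from the 13458 symbols of the normalized table, where all 10 were found. Igf1 had 4 transcript rows, Igf2 had 3 and the others had 1, and the row with the highest mean over the 24 limbs stands for a gene unless another is named. The animals were aged male Fischer 344 rats, 23 ± 1 months old. In 9 of them the left common peroneal nerve, which drives the ankle dorsiflexors, was silenced with tetrodotoxin (TTX), a sodium channel blocker. In the atrophy group (3 rats), the left TA was collected once TTX had run for 6 to 7 days. In the recovery group (3 rats), the nerve was then left free of TTX for 9 days, and in the repeated atrophy group (3 rats) a second TTX period of 5 to 6 days followed. The untreated right limbs of these 9 rats were the control, and both limbs of 3 sham-operated rats, 1 for each time point, formed the sham left and sham right groups. A contralateral limb shares its animal's surgery, circulation and changed loading, so it is not an untouched muscle.

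As background, IGF1 and IGF2 are secreted ligands that act through the IGF1 receptor, a tyrosine kinase that signals through insulin receptor substrate 1 (IRS1) to PI3K, Akt and mTORC1 and so favours protein synthesis in muscle fibres. The IGF2 receptor, also the cation-independent mannose 6-phosphate receptor, carries lysosomal enzymes and clears IGF2. The binding proteins hold the ligands outside the cell: IGFBP3 carries them in the circulation, IGFBP6 prefers IGF2, and IGFBP7 binds IGFs only weakly. Igf2 is a fetal growth factor that is also transcribed during myoblast differentiation.

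Values are CPM (reads of a row per 1000000 reads of its library), and the depth inferred from the step between low values was 18.94 to 30.98 in units of 1000000 reads, with a median of 26.0. Differences were tested with limma on log2(CPM + 1), so that folds of genes near 1 CPM are understated, and passing required a fold of 1.2 or more together with an adjusted p (Benjamini-Hochberg, all rows) not above 0.05. The median of all rows lay 0.22 above control on the log2 scale in atrophy and 0.20 above it in repeated atrophy, against 0.02 in recovery. Of all rows called, 10.3% were lower than control in atrophy and 18.2% in repeated atrophy, and with each library rescaled by a trimmed mean these shares were 51.2% and 48.0%. The summed level of 8 muscle fibre markers was 191543 to 257951 CPM in control, 95495 to 203174 CPM in atrophy, 193977 to 215316 CPM in recovery and 121722 to 149277 CPM in repeated atrophy, the last wholly below control. Its members went both ways in repeated atrophy, where Atp2a1 fell (adjusted p = 0.02), Mb rose (adjusted p = 0.012) and the other 6 did not pass. The part of this difference in the results for the 10 genes was not tested. All 8 were present in every group.

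Of the 10 genes, 3 rose in recovery (Igf2, Igf1 and Igfbp7), beside 7.73% of all rows called in that comparison. In repeated atrophy Igf2 rose and Irs1 fell, 2 of 10 beside a background of 34.3%, and in atrophy Irs1 alone passed, beside 22.6%. Without animal 362, 1 of 13993 rows was called in atrophy. From atrophy to recovery Igf2 and Igfbp6 rose (background 17.9%), and from recovery to repeated atrophy Irs1 fell (27.2%). No member passed between repeated atrophy and atrophy (background 0.0356%), where limma gave 1 member, Irs1, an unadjusted p under 0.05 and limma-voom on inferred reads also called 0. With the animal as a block, 3 members passed in repeated atrophy against control (Igf1r, Igf2 and Irs1), beside 27.1% of all rows, and 0 in the other 5 comparisons named, where the block called 0% of all rows in atrophy, 0.0641% in recovery and at most 0.0855% in the others. After trimmed mean rescaling, 6 members passed from recovery to repeated atrophy, all lower (Igf1, Igf2, Igfbp4, Igfbp6, Igfbp7 and Irs1), beside 21.7% of all rows, of which 51.4% were lower. In the same comparison and scaling, 6 of 7 fibroblast markers (median log2 difference -2.47) and 5 of 7 macrophage and leukocyte markers (-1.27) were lower, and their part in this count was not tested. The median log2 fold change of the 10 genes was 0.61 in recovery, beside 0.02 for all rows, and 0.22 in atrophy and 0.14 in repeated atrophy, beside 0.22 and 0.20.

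**Figure D1:**
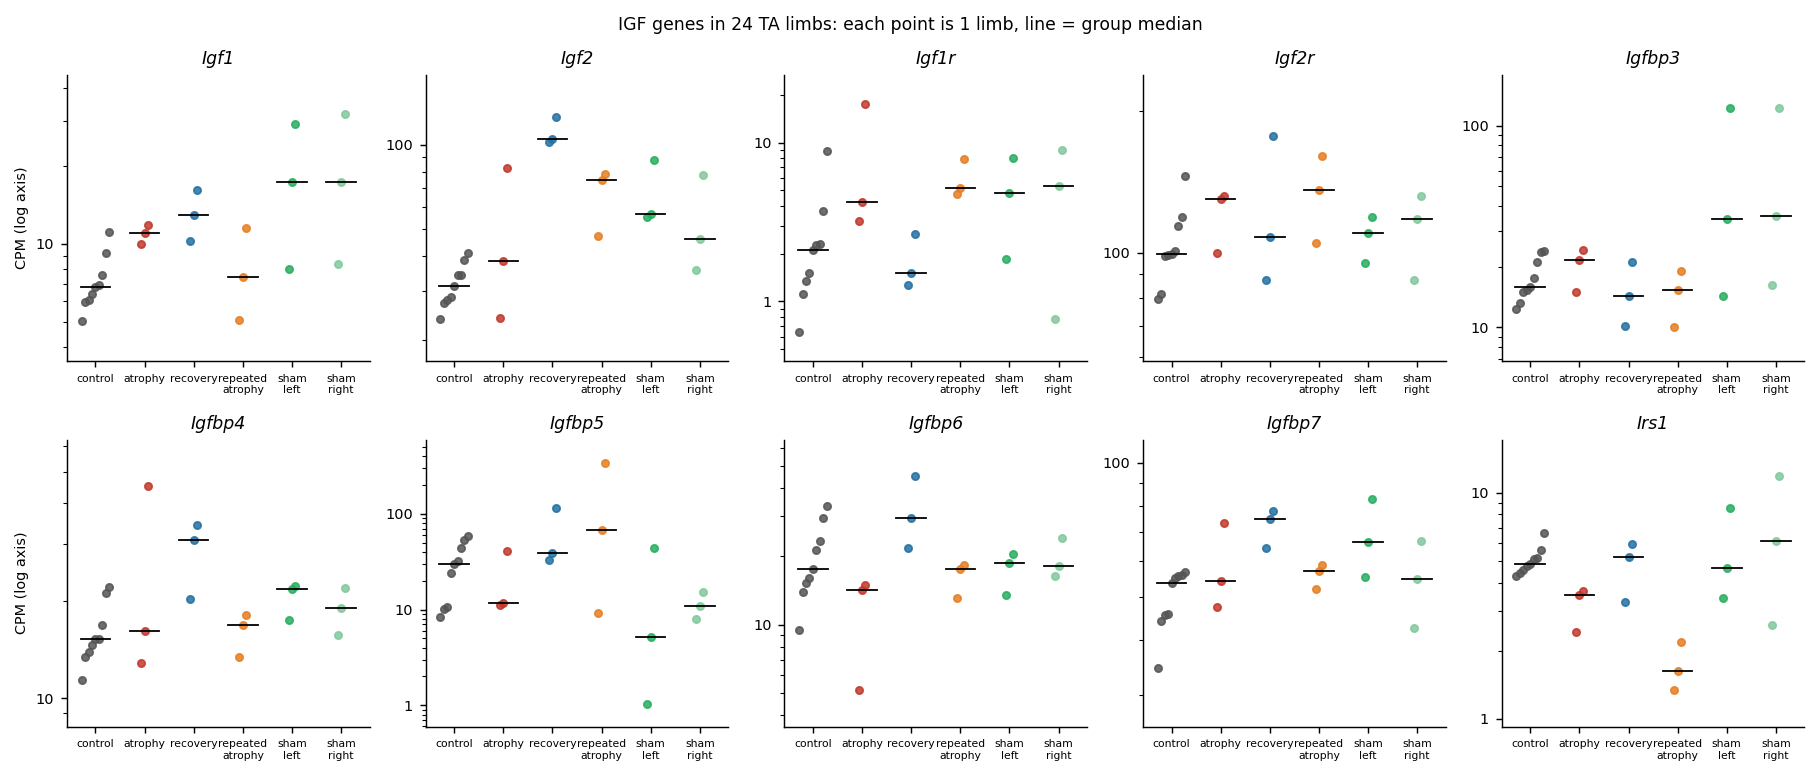
CPM (log axis) of the 10 IGF genes in each of the 24 limbs by group, with 1 point per limb and a line at the group median. The 3 recovery limbs of Igf2 (102 to 126 CPM) and the 3 repeated atrophy limbs of Irs1 (1.34 to 2.18 CPM) lie apart from the 9 control limbs, and Igfbp5 spreads from 9.25 to 342 CPM within repeated atrophy.

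Per kilobase of transcript, Igfbp7 was the most abundant member in control muscle at 45.0 ± 6.89 CPM per kb (SD, n = 9). It was followed by Igfbp6 (23.1 ± 8.86 CPM per kb), Igfbp5 (18.6 ± 11.7 CPM per kb), Igf2r (11.9 ± 2.31 CPM per kb) and Igf2 (9.03 ± 1.61 CPM per kb). Igfbp4 and Igfbp3 were close to each other (7.39 ± 1.62 and 7.27 ± 1.81 CPM per kb), and Igf1 stood at 3.95 ± 1.02 CPM per kb. Irs1 (0.938 ± 0.134 CPM per kb) and Igf1r (0.565 ± 0.532 CPM per kb) were the lowest. These values use 1 row per gene, and summed over their rows Igf2 stood at 18.1 ± 2.06 CPM per kb, near Igfbp5, and Igf1 at 4.87 ± 1.09 CPM per kb. In the order by 1 row, Igfbp7 and Igfbp6, Igfbp3 and Igf1, and Igf1 and Irs1 were separated by more than their SDs, while the other neighbours overlapped within 1 SD. The receptor that carries the IGF signal had the lowest mean of the 10 mRNAs per length, within 1 SD of Irs1.

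**Figure D2:**
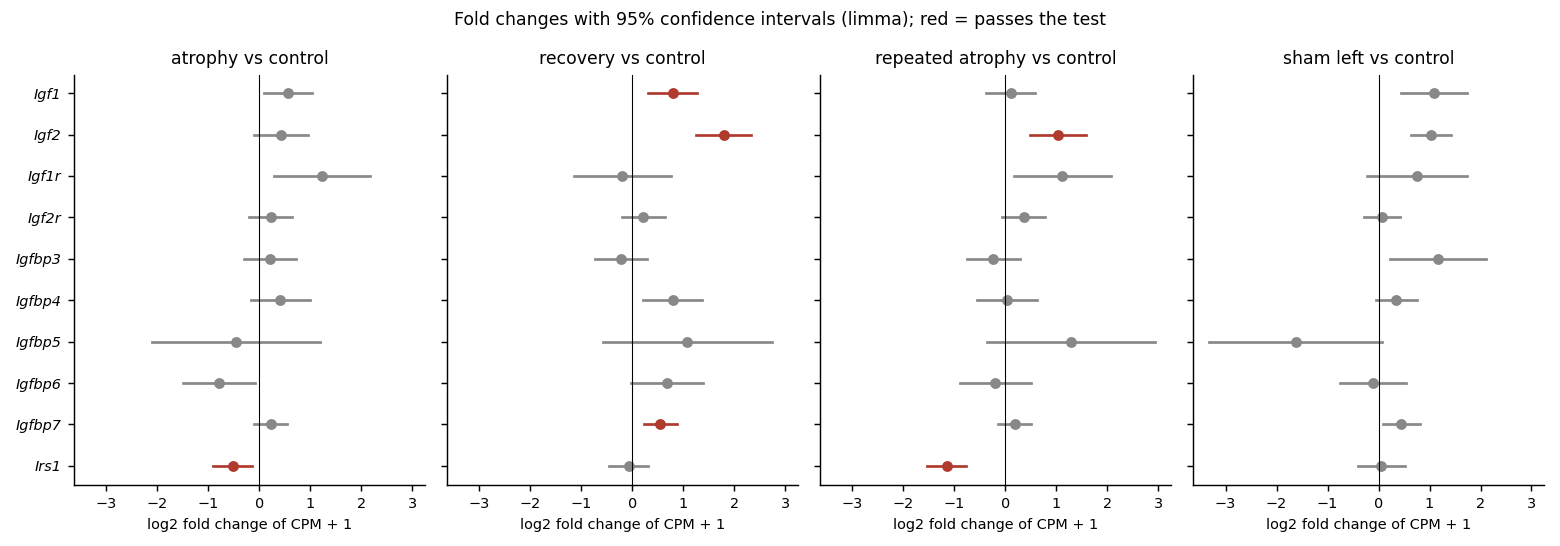
Log2 fold change of CPM + 1 against control for the 10 genes (points) with 95% confidence intervals (lines) in atrophy, recovery, repeated atrophy and sham left limbs, where red marks genes that passed. Igf2 has the largest called rise (1.79 in recovery) and Irs1 the largest called fall (-1.15 in repeated atrophy), and no gene passed in the sham left limbs.

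Igf2 was the member with the largest called change. Its 3520-base row (rn7 chromosome 1, 197814409 to 197821013, minus strand) ranged from 23.7 to 40.8 CPM in the 9 control limbs, with a median of 31.1 CPM. The recovery limbs read 102, 105 and 126 CPM, and the repeated atrophy limbs 47.0, 74.8 and 78.6 CPM. Every recovery and every repeated atrophy limb was above every control limb. The atrophy limbs read 38.4, 23.9 and 82.4 CPM and overlapped control. The fold change was 3.46 in recovery (log2 1.79 ± 0.26 SE, adjusted p = 0.0011), 2.05 in repeated atrophy (1.03 ± 0.26, adjusted p = 0.005) and 1.34 in atrophy (0.42 ± 0.26, adjusted p = 0.24). Against atrophy, the fold in recovery was 2.57 (1.36 ± 0.31, adjusted p = 0.011). Repeated atrophy was below recovery without passing (-0.76 ± 0.31, adjusted p = 0.082), and it passed after trimmed mean rescaling (-1.11, adjusted p = 0.011). In bulk tissue, a change in the number of expressing cells and a change in mRNA per cell cannot be told apart.

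The 3 sham left limbs were also above the control limbs for Igf2. Sham left muscle read 55.2, 87.7 and 56.2 CPM, all above the control range, and sham right muscle 45.9, 35.6 and 78.1 CPM, of which 1 lay inside it. The sham left fold against control was 2.03 (log2 1.02 ± 0.18, adjusted p = 0.13), which did not pass. With the sham left limbs as the control, the log2 difference in recovery was 0.76 (adjusted p = 0.16) and in repeated atrophy 0.01 (adjusted p = 1), so repeated atrophy did not stand above sham. With the animal as a block, which sets each left limb against its own right limb, recovery no longer passed (1.71, adjusted p = 0.075, where 9 of 14031 rows were called), while repeated atrophy did (0.94, adjusted p = 0.036). Without animal 365 the value for repeated atrophy was 0.91 (adjusted p = 0.057), and without animal 370 recovery no longer passed against atrophy (1.40, adjusted p = 0.052).

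The 3 Igf2 rows did not move alike. They end at the same 3′ position in rn7 and differ in their 5′ ends, at 197821013 for the 3520-base row, 197824518 for the 3508-base row and 197822950 for the 4495-base row. The 3508-base row rose from 22.4 ± 6.23 CPM in control (SD, n = 9) to 60 ± 2.48 CPM in recovery (n = 3, log2 1.43 ± 0.28 SE, adjusted p = 0.0064) and 44.6 ± 17.6 CPM in repeated atrophy (0.93, adjusted p = 0.015). In sham left limbs it was 46.5 ± 4.57 CPM, also above every control limb (1.07, adjusted p = 0.17). The 4495-base row was 11.9 ± 3.76 CPM in control, 11.5 ± 4.19 CPM in recovery and 12.4 ± 5.22 CPM in repeated atrophy, with log2 differences of -0.04 (95% interval -0.78 to 0.71) and 0.04 (-0.70 to 0.79). The share of Igf2 CPM in the 4495-base row was 12.0% to 29.5% in control and 5.07% to 8.12% in recovery. The log2 ratio of the shorter rows together to the longest was 2.24 ± 0.48 in control (SD, n = 9), 3.95 ± 0.39 in recovery and 3.23 ± 0.66 in repeated atrophy (n = 3 each). Every recovery limb (3.50 to 4.23) was above every control limb (1.26 to 2.87), while repeated atrophy (2.49 to 3.77) overlapped control. This ratio was formed after the row values were seen, so it is given as a description with no test. The sources used here do not give how reads shared by the rows were divided, so these row values rest on the authors' assignment.

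**Figure D3:**
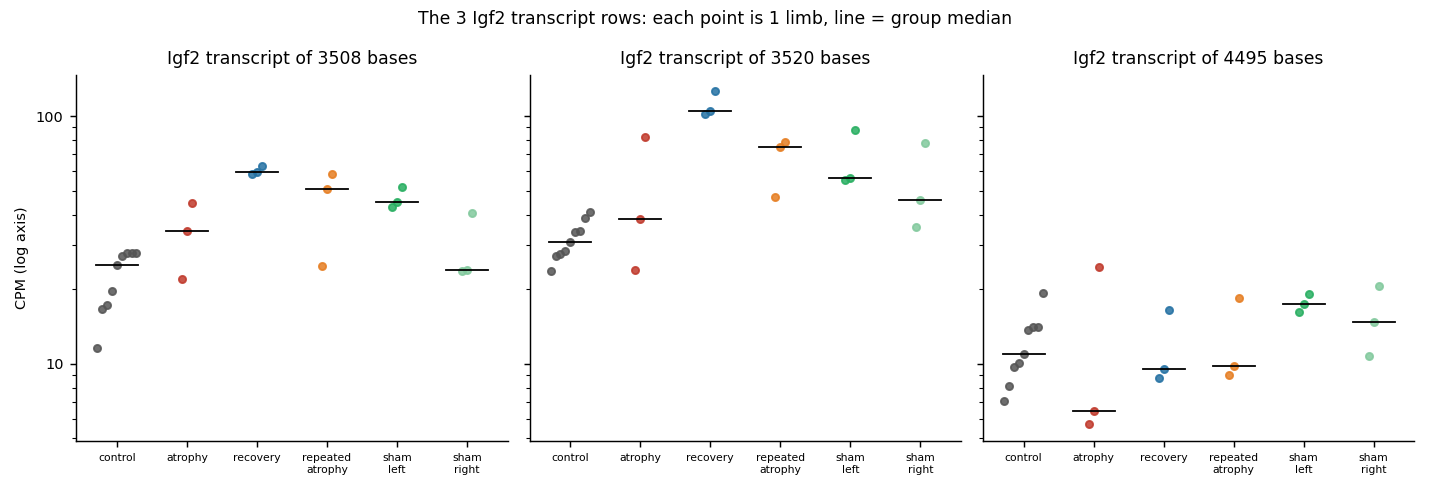
CPM (log axis) of the 3 Igf2 transcript rows in each limb by group, with a line at the group median. The rows of 3508 and 3520 bases lie higher in recovery than in every control limb, while the row of 4495 bases overlaps control in all 3 TTX groups.

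RefSeq lists start windows for 2 Igf2 transcripts on GRCr8, and their starts are 3505 bases apart, as are the rn7 5′ ends of the rows of 3508 and 3520 bases that rose. The 250 bases before each start are printed because these are the transcripts that moved, with any match to the GC box GGGCGG, the TATA box TATAAA or the FoxO core TGTTTAC on either strand in capitals.
Igf2 chr1:207250476-207250725 (minus strand, matching the 3520-base row by spacing): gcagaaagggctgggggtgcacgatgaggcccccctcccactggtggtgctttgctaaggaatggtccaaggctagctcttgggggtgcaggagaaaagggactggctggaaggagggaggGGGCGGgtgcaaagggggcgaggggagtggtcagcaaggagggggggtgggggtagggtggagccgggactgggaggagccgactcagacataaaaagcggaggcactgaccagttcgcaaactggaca
Igf2 chr1:207253981-207254230 (minus strand, matching the 3508-base row by spacing): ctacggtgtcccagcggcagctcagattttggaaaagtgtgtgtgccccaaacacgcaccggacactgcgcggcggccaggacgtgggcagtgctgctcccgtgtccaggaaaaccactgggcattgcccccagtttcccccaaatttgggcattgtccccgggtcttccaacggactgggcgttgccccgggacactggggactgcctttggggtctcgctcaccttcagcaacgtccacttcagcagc
The downstream window holds 1 GC box match and the upstream window none. A GC box match was present in 30.5% of 33469 windows of this length, a TATAAA match in 12.9% and a TGTTTAC match in 3.21%. GC content was 63.6% and 62.4%, beside a median of 51.2% over all windows. No coordinates were converted between builds, and a letter match is not a binding site.

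Markers of fibroblasts and fibro-adipogenic cells moved with Igf2 in recovery. Of the 7 markers, 6 rose in recovery against control (Col1a1, Col1a2, Col3a1, Dcn, Dpt and Lum), with Pdgfra not passing, and none was at 0. Their summed level was 1296 to 2476 CPM in recovery, 241 to 675 CPM in control and 406 to 673 CPM in repeated atrophy. The 7 macrophage and leukocyte markers summed to 98.1 to 204 CPM in recovery and 35.3 to 132 CPM in control, with 3 of 7 passing upward. With the animal block 0 of 7 passed in either list, and the median log2 difference was 1.64 for the fibroblast markers in place of 2.58 and 1.10 for the macrophage markers in place of 1.16. In repeated atrophy, where Igf2 also rose, 0 of 7 fibroblast markers passed, with log2 differences of 0.33 to 0.63. Of 4 satellite cell markers, Myf5 and Myod1 rose there, also with the block, and Calcr and Pax7 did not pass. The summed level of the 4 was 180 to 275 CPM in repeated atrophy and 46.5 to 96.1 CPM in control. Mean levels in repeated atrophy were 179 CPM for Myod1 and 43.5 CPM for Myf5, beside 0.74 CPM for Pax7 and 0.362 CPM for Calcr. In atrophy, where Igf2 did not pass, 2 of the 4 also rose (0 with the block), and the sum was 63.2 to 235 CPM. The part of these cells in the Igf2 result was not tested.

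Over the 24 limbs and 6543 genes with a mean of at least 10 CPM, the profiles most like that of Igf2 were Myh8, the perinatal myosin heavy chain (Pearson r = 0.8683), Hsd11b1, which regenerates active glucocorticoid (0.8549), and S100a4, a calcium-binding protein (0.8426). These correlations describe libraries that share animals and groups. The mean level of Myh8 was 16.3 ± 5.24 CPM in control (n = 9), 232 ± 31.5 CPM in recovery and 92.7 ± 39.2 CPM in repeated atrophy (SD, n = 3 each).

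Igf1, the ligand induced by growth hormone and by muscle loading, rose in recovery by a smaller fold than Igf2. Its main row of 1828 bases ranged from 5.01 to 11.1 CPM in control, with a median of 6.82 CPM. Recovery limbs read 16.1, 12.9 and 10.3 CPM, so the lowest of them fell inside the control range. The fold was 1.73 in recovery (log2 0.79 ± 0.23, adjusted p = 0.041). The fibroblast and macrophage markers given for Igf2 were higher in the same comparison, and their part in the Igf1 result was not tested. The call was lost with the animal block (0.70, adjusted p = 0.25). It was also lost without any 1 of animals 362, 365, 366, 369, 370, 371 or 372. There the log2 value was 0.71 to 0.92 and adjusted p reached 0.17. Atrophy limbs were level at 11.8, 11 and 9.97 CPM (0.56 ± 0.23, adjusted p = 0.08), and repeated atrophy limbs spread over 5.09, 11.5 and 7.45 CPM (0.10 ± 0.23, adjusted p = 0.79). After trimmed mean rescaling the log2 value for atrophy was 0.23 (adjusted p = 0.55).

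Within animals, Igf1 was higher in the left limb in all 3 atrophy rats (11.8 against 5.01, 11 against 7.55 and 9.97 against 6.82 CPM) and in all 3 recovery rats (16.1 against 11.1, 12.9 against 5.98 and 10.3 against 6.41 CPM). In the repeated atrophy rats the left limb read 5.09 against 9.23, 11.5 against 6.06 and 7.45 against 6.94 CPM, with no common direction. The highest Igf1 levels of the series were in sham muscle, where rats 354, 377 and 379 read 17.4, 8.02 and 29.2 CPM on the left and 17.4, 8.37 and 31.7 CPM on the right. The limbs of a sham rat were closer to each other than the sham rats were among themselves. With sham left limbs as the control, the log2 difference of Igf1 in recovery was -0.30 (adjusted p = 0.65). The most similar profiles were Fgl2 (Pearson r = 0.8243), Steap4 (0.8151) and Rps6ka3 (0.8098), again over 24 limbs that share animals.

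**Figure D4:**
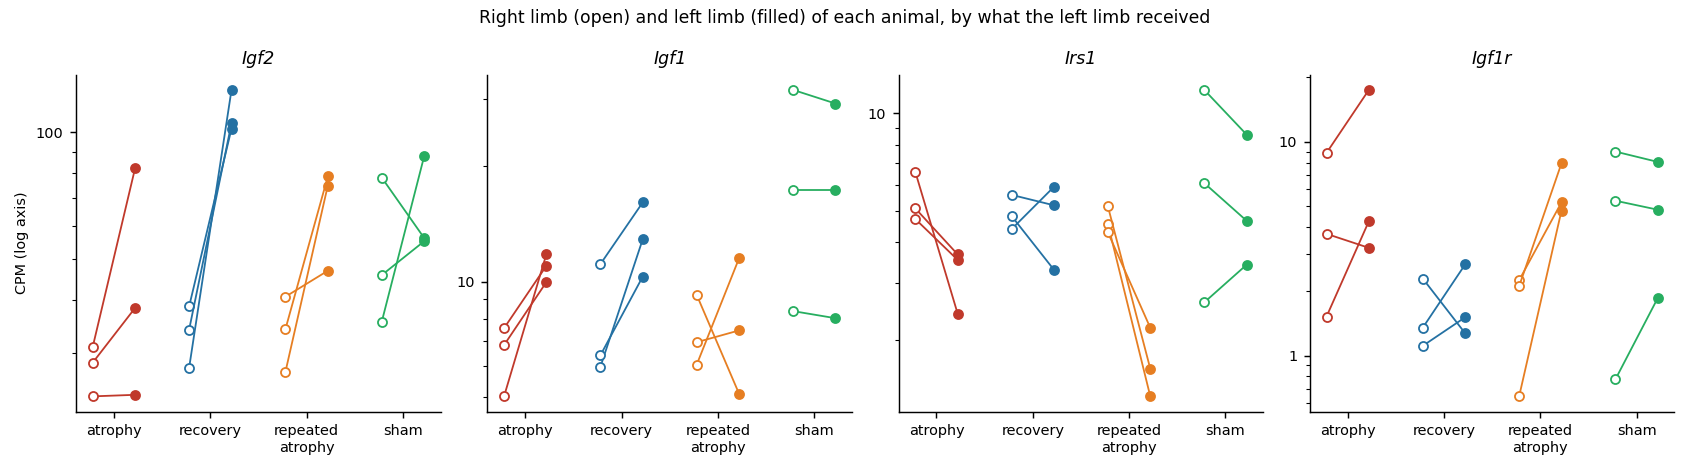
CPM (log axis) of Igf2, Igf1, Irs1 and Igf1r in the right limb (open) and left limb (filled) of each animal, joined by a line, by what the left limb received. For Igf2 the left limb is higher in 9 of 9 TTX rats (23.9 against 23.7 CPM in animal 367) and in 2 of 3 sham rats. For Irs1 the left limb is lower in all 3 atrophy and all 3 repeated atrophy rats.

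Igf1r, the signalling receptor, was low and variable. Control limbs ranged from 0.644 to 8.87 CPM (median 2.11 CPM), the highest being the right limb of animal 372, whose left limb was also the highest in atrophy. Atrophy limbs read 4.25, 3.19 and 17.5 CPM, recovery limbs 1.27, 1.51 and 2.67 CPM, and repeated atrophy limbs 4.77, 5.21 and 7.94 CPM. All recovery limbs were below all atrophy limbs and all repeated atrophy limbs, but neither difference passed (-1.43 ± 0.55, adjusted p = 0.077, and 1.31 ± 0.55, adjusted p = 0.084). With 1 animal left out, the former was -1.84 to -0.77 and passed only without animal 367 (adjusted p = 0.032). The latter was 1.12 to 1.52 and passed only without animal 372 (adjusted p = 0.0072). The log2 difference from control was 1.23 ± 0.45 in atrophy (adjusted p = 0.056) and 1.11 ± 0.45 in repeated atrophy (adjusted p = 0.063). With the animal block it passed in repeated atrophy (1.42 ± 0.32, adjusted p = 0.01), where the left limb was higher in 3 of 3 rats (4.77 against 0.644, 5.21 against 2.25 and 7.94 against 2.11 CPM). In atrophy the block gave 0.60 (adjusted p = 0.32). Sham limbs read 4.81, 1.86 and 8.05 CPM on the left and 5.30, 0.774 and 9.00 CPM on the right, a range that includes all repeated atrophy limbs.

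Igf2r, the IGF2 clearance receptor, was 104 ± 20.3 CPM in control (SD, n = 9) and did not pass in any comparison. Recovery limbs read 87.7, 108 and 177 CPM and repeated atrophy limbs 105, 136 and 161 CPM. The control limbs ranged from 79.6 to 146 CPM, so that both groups overlapped control and each had 1 limb above it. Within animals, the left limb was higher in 3 of 3 repeated atrophy rats (105 against 81.7, 136 against 98.3 and 161 against 99.5 CPM), and the block gave 0.50 (adjusted p = 0.12). The 95% interval of the log2 difference was -0.21 to 0.63 for recovery and -0.06 to 0.78 for repeated atrophy.

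Irs1, the adaptor between the receptor and PI3K, fell during both periods of silencing and stood near control between them. Control limbs ranged from 4.29 to 6.60 CPM with a median of 4.82 CPM. Atrophy limbs read 3.67, 3.53 and 2.41 CPM, recovery limbs 3.29, 5.93 and 5.20 CPM, and repeated atrophy limbs 1.34, 1.63 and 2.18 CPM. All atrophy and repeated atrophy limbs were below all control limbs, and all repeated atrophy limbs were below all atrophy limbs. Mean CPM was 3.20 in atrophy and 1.72 in repeated atrophy against 5.02 in control. On the CPM + 1 scale the fold was 0.695 in atrophy (log2 -0.52 ± 0.18, adjusted p = 0.047) and 0.450 in repeated atrophy (-1.15 ± 0.18, adjusted p = 0.00024). In recovery the log2 difference was -0.07 (95% interval -0.46 to 0.31). From recovery to repeated atrophy it fell by 1.08 on the log2 scale (SE 0.22, adjusted p = 0.0033). The difference between the TTX periods, -0.63 ± 0.22, did not pass (adjusted p = 0.56).

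The fall in repeated atrophy passed without each of the 9 TTX rats in turn (-1.29 to -1.06), with the animal block (-1.07, adjusted p = 0.014), after trimmed mean rescaling (-1.42, adjusted p = 5.8e-05) and with sham left limbs as the control (-1.20, adjusted p = 0.0081). The fall in atrophy was at the threshold. It did not pass with the block (-0.62, adjusted p = 0.24), with sham left limbs as the control (-0.58, adjusted p = 0.35), or without any of animals 362, 365, 369, 370, 371 or 372, and without animal 372 it was -0.34 (adjusted p = 0.28). From recovery to repeated atrophy the block gave -1.01 (adjusted p = 0.19). Sham limbs spread more widely than control, at 4.66, 3.41 and 8.59 CPM on the left and 6.09, 2.61 and 11.8 CPM on the right.

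Irs1 lies on rn7 chromosome 9 from 83552964 to 83605798 on the minus strand. The 250 bases before its RefSeq start on GRCr8 are printed since it was the member that fell, with GC box matches in capitals (CCGCCC is the same box read from the other strand).
Irs1 chr9:91053960-91054209 (minus strand): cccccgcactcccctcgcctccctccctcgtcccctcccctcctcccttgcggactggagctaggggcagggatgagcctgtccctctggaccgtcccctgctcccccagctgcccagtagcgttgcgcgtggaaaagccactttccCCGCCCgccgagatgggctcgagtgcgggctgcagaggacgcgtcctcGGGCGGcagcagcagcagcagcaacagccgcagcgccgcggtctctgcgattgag
The window holds 2 GC box matches and no match to TGTTTAC or TATAAA, and its GC content is 70.8%.

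The binding proteins differed from each other. Igfbp6 was lowest in atrophy and highest in recovery. Its control limbs ranged from 9.51 to 33.5 CPM (median 17.7 CPM), atrophy limbs read 5.17, 14.9 and 14.3 CPM, recovery limbs 29.6, 21.7 and 45.0 CPM, and repeated atrophy limbs 13.1, 18.4 and 17.7 CPM. The fold of recovery over atrophy was 2.77, with no overlap (log2 1.47 ± 0.41, adjusted p = 0.022), while neither group passed against control (-0.79 ± 0.33, adjusted p = 0.092, and 0.68 ± 0.33, adjusted p = 0.21). In the same comparison 6 of 7 fibroblast markers were higher (median log2 difference 2.07, and 0 of 7 with the block), and their part in the Igfbp6 result was not tested. The recovery call against atrophy was lost with the block (0.72, adjusted p = 0.68) and without animal 362, 369 or 371 (adjusted p = 0.077, 0.074 and 0.08). After trimmed mean rescaling the atrophy difference passed (-1.12, adjusted p = 0.045).

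Igfbp7, a vascular and matrix-associated member, was 77.9, 64.3 and 74.6 CPM in recovery, above all 9 control limbs (34.6 to 56.7 CPM). The fold was 1.46 (log2 0.55 ± 0.15, adjusted p = 0.039). With the block the value was 0.48 (adjusted p = 0.26). The call was also lost without animal 365, 369, 370 or 371 (log2 0.51 to 0.64, adjusted p up to 0.19). Atrophy limbs read 54.1, 47.4 and 73.2 CPM and repeated atrophy limbs 57.0, 58.8 and 52.1 CPM. Sham left limbs were as high as 83.0 CPM, and with them as the control the recovery difference was 0.10 (adjusted p = 0.82). The 7 endothelial markers gave 0 of 7 higher and 1 lower in recovery, Cldn5 (-1.0, adjusted p = 0.018), which did not pass with the block (-0.69, adjusted p = 0.24). The fibroblast and macrophage markers given for Igf2 were higher in this comparison too, and their part in the Igfbp7 result was not tested.

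Igfbp4, Igfbp5 and Igfbp3 did not pass in any comparison. Igfbp4 limbs in recovery read 30.9, 20.2 and 34.2 CPM against 11.4 to 22 CPM in control (0.79 ± 0.28, adjusted p = 0.086), and animal 372 was at 45.1 CPM in atrophy beside 16.1 and 12.9 CPM in the other two. Igfbp5, which is made by muscle fibres and interstitial cells, was the most variable. It ranged from 8.27 to 59.1 CPM in control and read 9.25, 67.1 and 342 CPM in repeated atrophy (1.28 ± 0.79, 95% interval -0.37 to 2.94), where animal 366 was highest. Without animal 364 it passed (2.44, adjusted p = 0.02), and without animal 366 the difference was 0.20 and did not pass. Igfbp3 was 17.6 ± 4.37 CPM in control (SD, n = 9), and its log2 differences in the TTX groups were between -0.24 and 0.20. Sham animal 379 stood apart at 122 CPM in both limbs, against 14.3 to 35.8 CPM in the other sham limbs.

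No member passed between sham left and control or between sham left and sham right, where 0% of all rows were called. Limma gave 4 members an unadjusted p under 0.05 in the former (Igf1, Igf2, Igfbp3 and Igfbp7, all higher in sham) and 0 in the latter. The log2 differences from control were 1.09 for Igf1 (adjusted p = 0.24), 1.02 for Igf2 (0.13), 1.16 for Igfbp3 (0.32) and 0.45 for Igfbp7 (0.32). Without animal 377, Igf1 (1.55, adjusted p = 0.025) and Igfbp3 (1.87, adjusted p = 0.04) passed, whereas without animal 379 the differences were 0.68 and 0.36 and did not pass. No endothelial or macrophage marker passed between sham left and control (0 of 7 each), with median log2 differences of 0.63 and 0.70. The endothelial sum was 234 to 536 CPM in sham left and 196 to 275 CPM in control, and the part of these cells in the sham values was not tested. Right limbs of the sham rats in place of the left gave 1.14 for Igf1 and 0.67 for Igf2 (adjusted p = 0.57 and 0.59).

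Other genes of the pathway were taken from 7 lists with 55 symbols, of which 46 were tested. Against control, 10 were higher and 2 lower in atrophy, 0 were higher and 3 lower in recovery, and 15 were higher and 3 lower in repeated atrophy, beside 22.6%, 7.73% and 34.3% of all rows called in these comparisons. These counts share control limbs and moved with scaling, since trimmed mean rescaling gave 3 higher and 3 lower in atrophy, 0 and 6 in recovery, and 6 and 9 in repeated atrophy, beside 9.68%, 12.1% and 25.2% of all rows. With the animal block, 0 passed in atrophy or recovery, and 13 higher and 5 lower in repeated atrophy, where the block called 27.1% of all rows. From atrophy to recovery 13 of 46 fell and 0 rose (background 17.9%, of which 81.3% lower), and from recovery to repeated atrophy 10 rose and 3 fell (27.2%, of which 23.1% lower), while the block called 0 in each. After rescaling, 1 rose and 4 fell from atrophy to recovery (background 10.7%), and 6 rose and 4 fell from recovery to repeated atrophy (21.7%).

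**Figure D5:**
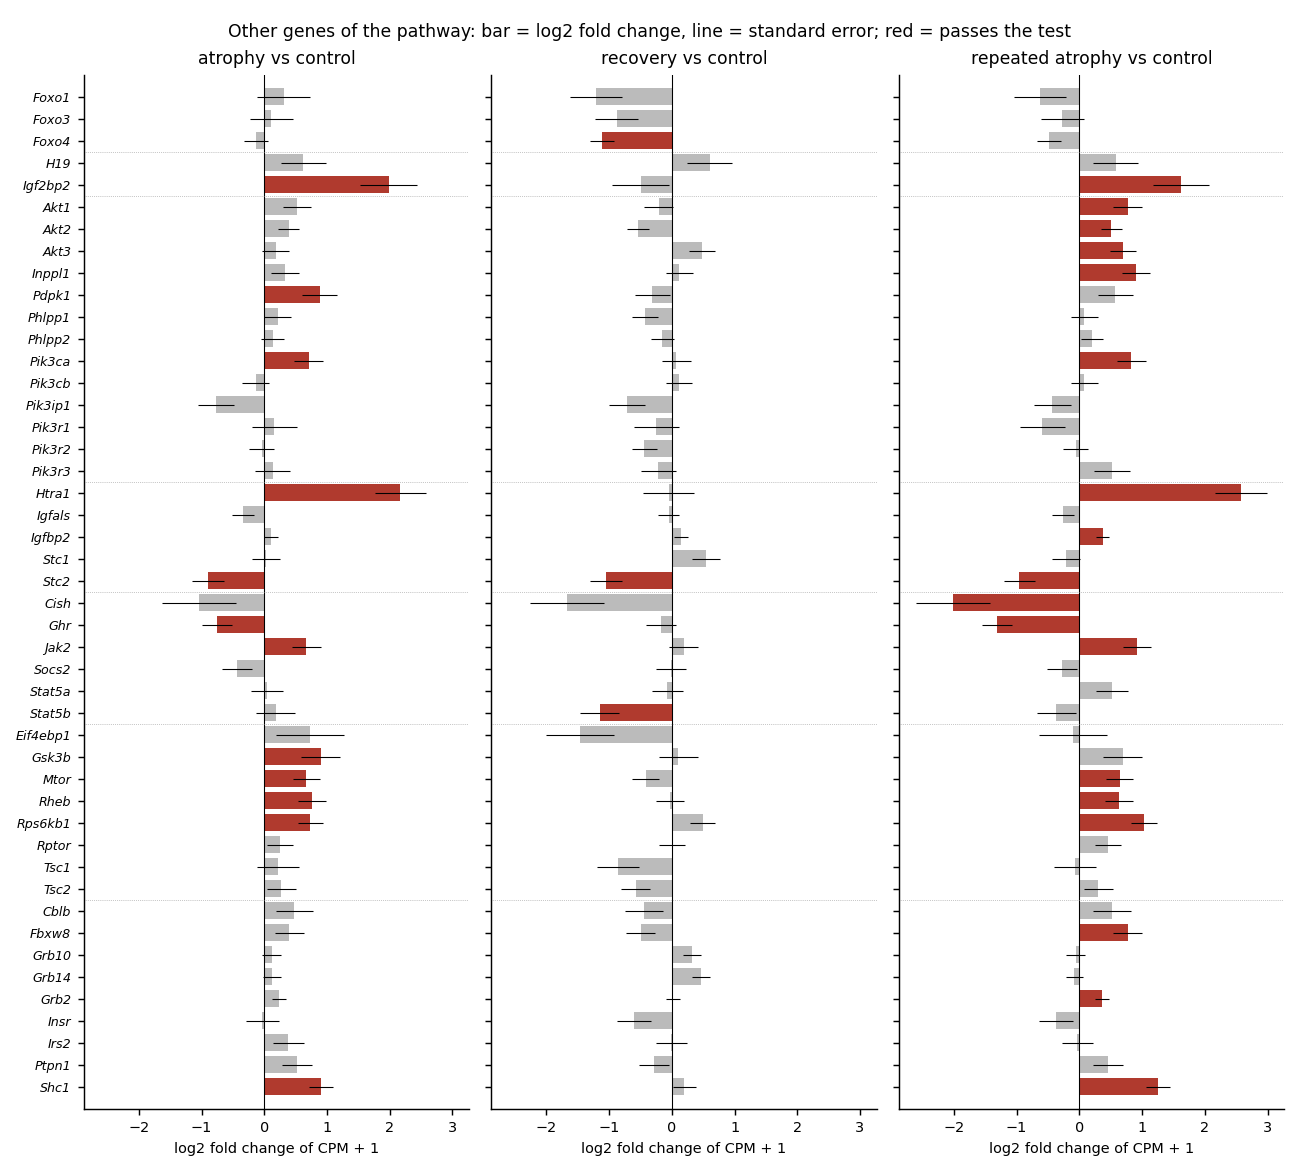
Log2 fold change of CPM + 1 against control (bars) with standard errors (lines) for the 46 tested genes of the wider IGF pathway, grouped by list with dotted separators, in atrophy, recovery and repeated atrophy. Red bars passed the test, and Htra1 has the longest bars in atrophy (2.17) and repeated atrophy (2.58).

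Outside the cell, Htra1, a secreted serine protease that can cleave IGF binding proteins, rose in both periods of silencing. It was 56.7 ± 22.7 CPM in control (SD, n = 9), 309 ± 214 CPM in atrophy, 54.7 ± 22.6 CPM in recovery and 336 ± 108 CPM in repeated atrophy (n = 3 each). The log2 differences were 2.17 (adjusted p = 0.0062) and 2.58 (adjusted p = 0.00024), and after rescaling 1.80 and 2.20. The lowest atrophy limb (85.1 CPM) overlapped control (up to 110 CPM), while every repeated atrophy limb was above every control limb. Sham limbs reached 210 CPM on the left and 170 CPM on the right. The block kept the call in repeated atrophy (2.64, adjusted p = 0.0035) and not in atrophy (1.68, adjusted p = 0.15). Stc2, which inhibits a protease of IGF binding proteins, fell in atrophy (-0.90, adjusted p = 0.018), recovery (-1.05, adjusted p = 0.018) and repeated atrophy (-0.96, adjusted p = 0.0066), with control at 2.53 ± 1.06 CPM. With the block it passed in repeated atrophy (adjusted p = 0.0078) and not in atrophy or recovery (0.19 and 0.1). Igf2bp2, an RNA-binding protein named for Igf2 mRNA, rose from 1.81 ± 1.87 CPM in control to 9.23 ± 4.55 CPM in atrophy (1.98, adjusted p = 0.0093) and 7.76 ± 6.32 CPM in repeated atrophy (1.62, adjusted p = 0.01). It was lower in recovery than in atrophy (-2.47, adjusted p = 0.01), where the 3 recovery limbs lay below the 3 atrophy limbs. Atrophy (from 5.17 CPM) and repeated atrophy (from 3.84 CPM) both overlapped control (up to 6.36 CPM), and sham left limbs reached 12.4 CPM.

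On the growth hormone side, the receptor Ghr was 79.4 ± 14.6 CPM in control (SD, n = 9) and 33.0 ± 13.5 CPM in repeated atrophy (n = 3, log2 -1.32 ± 0.24, adjusted p = 0.00058). It passed in that comparison with the block (-1.31, adjusted p = 0.0078) and after rescaling (-1.69, adjusted p = 0.00025). Cish, a feedback inhibitor induced by STAT5, fell by 2.01 on the log2 scale (adjusted p = 0.014), to 2.60 to 4.93 CPM against 5.39 to 53.5 CPM in control. Stat5b, the transcription factor below the receptor, fell in recovery to 19.6 to 25.6 CPM against 30.7 to 101 CPM in control (-1.15, adjusted p = 0.033).

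Below the receptor, Shc1, an adaptor that links it to Ras, rose in atrophy (0.90, adjusted p = 0.0074) and repeated atrophy (1.26, adjusted p = 0.00018), where it read 81.4 to 89.2 CPM against 27.7 to 52.9 CPM in control. In repeated atrophy it was higher as Irs1 was lower, and both calls held with the block. Gsk3b, a kinase that Akt inhibits, rose in atrophy (0.90, adjusted p = 0.047) but not after rescaling (0.57, adjusted p = 0.18). From atrophy to recovery, Eif4ebp1, a translation repressor that mTORC1 inactivates, fell by 2.19 on the log2 scale (adjusted p = 0.03), and Foxo1, a transcription factor restrained by Akt, by 1.52 (adjusted p = 0.048). After rescaling neither passed (adjusted p = 0.067 and 0.1). Foxo4 fell in recovery against control from 322 ± 69.0 CPM (n = 9) to 146 ± 4.93 CPM (n = 3), a log2 difference of -1.11 (adjusted p = 0.0037). From recovery to repeated atrophy, Fbxw8, a ubiquitin ligase subunit, rose by 1.27 (adjusted p = 0.0045) and Mtor, the kinase of mTORC1, by 1.06 (adjusted p = 0.0067).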

How the data were processed

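RNA sequencing of the TA gave 24 libraries from 12 rats. Per the methods, the authors removed contaminants with Bowtie2 (2.2.5 in the submitters' processing notes), aligned 59-base read pairs to rn7 with STAR and used Partek Flow. The annotation and counting step are not given in the sources used here. The authors deposited CPM, since each column totals 1000000, although DESeq2 median of ratios is named in the methods, so the tests written for normalized values were used.

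The table has 14271 rows, and without 28 duplicates it has 14243, for 13458 symbols. The 3 value columns that match no sample were not used. Depth was inferred from the step between low values, and 89.42% to 90.75% of low values over all rows were whole multiples of it (within 0.1 read), so reads per row were not treated as recovered. For symbols with 1 row the share was 97.9% to 99.0%, and 98.3% of low sums per symbol were whole, which limma-voom used as an alternative. At these depths 1 read was at most 0.0528 CPM.

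Rows above 0 in at least 3 samples entered limma (3.58.1, under R 4.3.3) with its trend option, 18 samples in 1 fit. The sham comparisons were separate fits of 12 and 6 samples, and sham left against right had the animal as a block. The labels give both limbs of each animal, so they are paired. The correlation of limb deviations averaged 0.118 in TTX rats (-0.321 to 0.53) and 0.745 in sham rats. P-values rest on 3 animals per treated group. Fits were tested on simulated data. Named pathway genes were at most the 5 largest passing changes per comparison. The genes, lists and comparisons were chosen with earlier results of these data known. Igfbp1, Pappa, Pappa2, Igfbpl1, Cul7, Fbxo40 and Rictor had no row under these symbols. Igf2bp1 and Igf2bp3 were above 0 in fewer than 3 samples and were not tested. The result of 1 further gene of the fixed lists is not reported here, and the counts leave it out. Summaries used pandas 2.3.3. Alternatives included other pseudocounts, scalings, filters, controls, blocks and leaving out each animal.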

Additional observations from a re-analysis of the deposited data

Results flagged for a closer look

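The left minus right difference of Igf1 was positive in all 3 atrophy and all 3 recovery rats and slight in all 3 sham rats. It was 0.49 to 1.09 on the log2 scale in atrophy and 0.50 to 0.99 in recovery, against -0.12 to -0.00 in sham, where both limbs of animal 354 read 17.4 CPM. The mean sham difference was lower than that of atrophy by a log2 value of -0.75 and than that of recovery by -0.76. The difference between these groups was not tested. No control limb of the 10 genes lay beyond Dixon's critical value for 9 samples. The closest was Igfbp7 in animal 362 (34.6 CPM, 0.483). Chance alone would mark about 1 in 20 such groups.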

How the results depend on the processing

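The number of members passing depended on the processing in 6 comparisons. In atrophy, 1 member passed (22.6% of all rows). With limma-voom on inferred reads, median of ratios rescaling, quantile normalization or trimmed mean rescaling 2 did (26.9%, 9.69%, 10.4% and 9.68% of all rows). None did (0) with 12 right limbs, own right limbs or sham left limbs as control (17.1%, 0% and 0.0213% of all rows). The same held for a fold change of at least 1.5 (18.7%) and only the groups compared (18.1%). A pseudocount of 0.1 or 10 (21.9% and 20.4%) and the replicate block (0%) also gave 0. So did rows with a mean of at least 10 (43%), which leave out Irs1. In recovery, 3 passed (7.73% of all rows), and 1 with own right limbs (0.349%). With the replicate block (0.0641%) or sham left limbs as control (2.16%) 0 did. In repeated atrophy, 2 passed (34.3% of all rows), and 3 with the paired block (27.1%). With sham left limbs as control 1 did (8.54%), Irs1. Quantile normalization (25.7%) gave 1, as did a mean of at least 10 (54.6%), which leaves out Irs1. From atrophy to recovery, 2 passed (17.9% of all rows), and 4 with trimmed mean or median of ratios rescaling (10.7% and 10.6%). With only the groups compared (10.3%) or with the block (0.0143%) 0 did. From recovery to repeated atrophy, 1 passed (27.2% of all rows), and 2 with limma-voom or rows summed per symbol (27.8% and 29%). Only the groups compared gave 5 (28.9%). Trimmed mean rescaling (21.7%), median of ratios rescaling (21.5%) and quantile normalization (20.6%) gave 6. The block (0.0855%) and a mean of at least 10 (48%) gave 0. Leaving out each animal in turn gave 0 to 4 members in atrophy (4 without animal 367), beside 0.00715% to 34.6% of all rows. It gave 1 to 3 in recovery (1.32% to 10.6%) and 1 to 3 in repeated atrophy (18.4% to 37.6%). From atrophy to recovery it gave 1 to 3 (2.84% to 26.5%). From recovery to repeated atrophy it gave 1 to 4 (13.2% to 30.4%), with 4 without animal 372. For sham left against control it gave 0 to 2 (0% to 0.856%), with 2 without animal 377. The cause of these changes was not tested.

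Over the 9 called values, 174 of 221 alternatives kept the call in the same direction, 46 kept the direction without passing and 1 reversed, Igf1 in recovery with sham left limbs as control (-0.30). Of 71 values that did not pass, 34 changed sign under at least 1 alternative and 19 passed under at least 1. The replicate block changed no call of the 10 genes other than those given. At these depths 1 read was at most 0.0528 CPM, beside a lowest value of 0.644 CPM for Igf1r in control. Median of ratios rescaling, sham left limbs as control, limma-voom and the right sham limbs were chosen after seeing the data.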
